A study of Mus musculus with 7 samples.

Results

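Integrins and laminins are the receptors and the ligands through which epithelial cells hold to the basement membrane. They were taken as every probe set that the platform annotation pairs with 1 gene symbol and whose symbol is that of an integrin alpha or beta subunit or of a laminin alpha, beta or gamma chain. This gave 59 probe sets of 31 genes, out of 45141 probe sets and 17097 named genes on the array. Integrin subunits of epithelium and matrix adhesion (16 genes, 33 probe sets) were kept apart from those of leukocytes (7 genes, 12 probe sets), and the laminin chains (8 genes, 14 probe sets) formed the remaining family. The subunits Itga11, Itgad and Itgb8 and the chains Lama4 and Lama5 were not analysed here.

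An integrin is a pair of an alpha and a beta subunit that spans the membrane, and the pairing decides the ligand. In gut epithelium the alpha-6 subunit pairs with beta-4 in hemidesmosomes, the junctions that anchor keratin filaments to laminin, or with beta-1, which also joins alpha-3 (laminin) and alpha-2 (collagen). The alpha-v subunit pairs with beta-5 or beta-6 among others, and the beta-6 form binds fibronectin and activates latent TGF-beta. Laminins are secreted trimers of 1 alpha, 1 beta and 1 gamma chain, and Lama3 and Lamb3 encode chains of the main hemidesmosome ligand. Leukocytes use other integrins, such as those with the beta-2 subunit and the alpha-E and beta-7 pair, which binds E-cadherin on epithelial cells.

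The levels were measured in sorted cells of mouse colon adenomas on 7 Affymetrix arrays, 3 labelled KO and 4 labelled WT for Mex3a, which encodes an RNA-binding protein. The KO group is read here as animals with a Tomato allele and a floxed allele of Mex3a, and the WT group as animals with a Tomato allele and an intact one. Both groups carried Villin CreERT2, a tamoxifen-inducible Cre under a promoter of intestinal epithelium, and 1 floxed Apc allele, and both received 4 doses of tamoxifen and then 2% dextran sulfate sodium (DSS, which injures the colon) for 5 days. Adenomas were taken 2 months after DSS per the series' design text, while the labels' protocol counts the 2 months from induction. Epcam-positive, Tomato-positive cells were sorted, so each sample holds epithelial cells in which the Mex3a promoter had been active, and RNA of 2000 cells was amplified over 24 cycles. Animal age was not used here.

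Values are log2 levels per probe set, and a difference of 1 is a doubling. The array medians lay between 5.96 and 6.00. Mex3a read 6.18, 6.29 and 6.07 in KO, against 7.41, 7.38, 7.50 and 7.01 in WT, a difference of -1.13 (SE 0.13; limma, adjusted p = 0.142). The sources used here do not say where its probes lie relative to the floxed part, so this checks the labels only in part. Epcam lay between 11.88 and 11.99 on all arrays. Scan batch 1 held KO replicate 1 with WT replicates 1 and 2, and the other 4 arrays formed scan batch 2. The Y-linked gene Eif2s3y was high in KO replicate 3 (9.02) and WT replicate 2 (8.92) and lay between 4.17 and 4.29 on the others, so the animals were not all of 1 sex and each group held at least 2 animals. The 3' minus 5' difference of the Gapdh control probe sets, used as a measure of RNA quality, was -0.154, -0.213 and -0.239 in KO, against -0.131, -0.209, -0.121 and -0.121 in WT. Its KO mean was lower, with WT replicate 2 beside the KO arrays. The same difference for the actin control probe sets was -0.301, -0.515 and -0.446 in KO, against -0.485, -0.429, -0.497 and -0.448 in WT, and did not follow genotype. Nothing in the labels says that every array is a separate animal, so each p-value here weighs a difference only against spread among these arrays, part of which may be technical.

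No integrin or laminin passed the test between KO and WT. The largest differences lay in subunits of epithelium and matrix adhesion. On their brightest probe sets, Itga6 and Itgb6 stood higher in every KO array than in every WT array, by 1.26-fold and 1.21-fold. The other Itga6 set did so too, while the other Itgb6 set overlapped. The mean differences of Itgb4 and Itgb5 were both -0.21 on the log2 scale, with overlap, and that of Itga7 was -0.18, without overlap. The laminin chains and the leukocyte integrins showed no difference above 0.17 in either direction.

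The genes were tested with limma over 12822 genes above a level of 5.28, 1 probe set per gene, with scan batch as a covariate. Of the 31 genes, 24 passed that level. The 7 below it were the epithelial and matrix subunits Itga1, Itga5, Itga8, Itga10 and Itgb3 and the leukocyte subunits Itga4 and Itgam. Over all genes 0 had an adjusted p under 0.05 (0% called), and 0 of the 24 did. At an unadjusted p under 0.05 there was 1 of the 24, Itga6, against 11.4% of all genes tested, and 3 of the 24 (Itga6, Itgb6 and Itga7) had arrays that did not overlap, against 5.91% of all genes. The median difference was -0.05 over the 24, with 9 positive and 15 negative, and -0.02 over all genes, with 5630 positive and 7192 negative. By family, the 11 epithelial and matrix subunits had a median of -0.07 (3 positive, 8 negative), the 5 leukocyte subunits -0.03 (2 positive, 3 negative) and the 8 laminin chains -0.04 (4 positive, 4 negative).

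A second fit took all 45037 probe sets other than controls, so that every integrin and laminin probe set had a value. Again 0 were called over all of them (0%). At an unadjusted p under 0.05 there were 4 of the 59, against 9.39% of all probe sets: both of Itga6 and 1 of Itgav were higher in KO and 1 of Itgb5 was lower. Every KO array lay above every WT array on 3 of the 59, both Itga6 sets and 1 Itgb6 set, against 2.16% of all, and below on 1, Itga7, against 2.8%. All of these were epithelial or matrix subunits. Of 15 genes with several probe sets, 9 had differences of 1 sign and 6 had both signs.

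**Figure D1:**
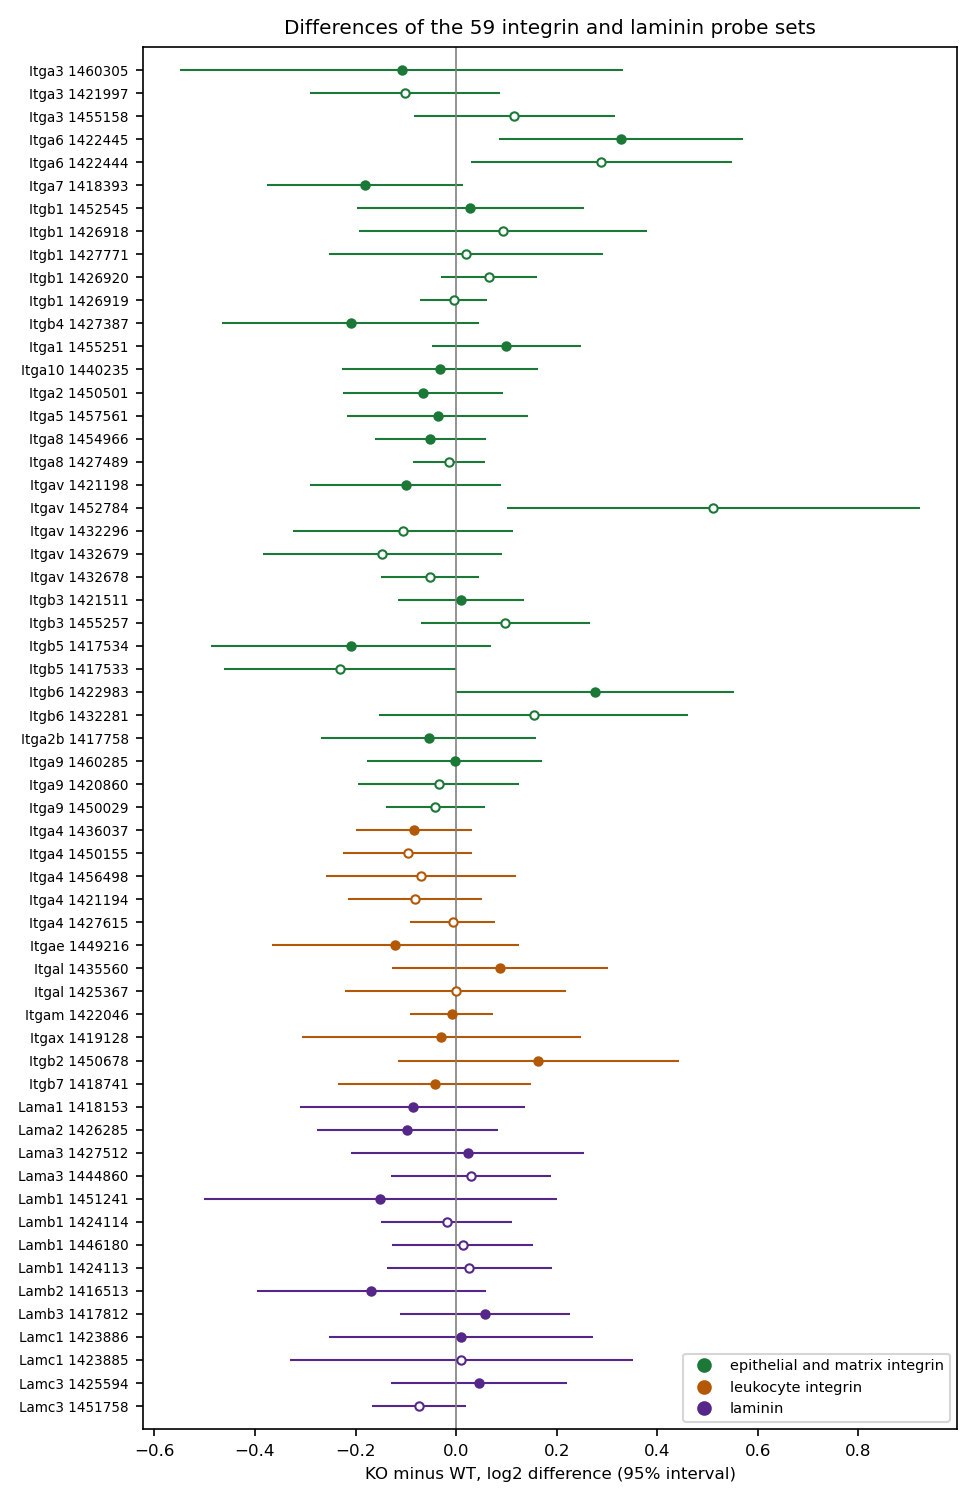
KO minus WT log2 difference of each of the 59 probe sets with its 95% interval from the fit over all probe sets, coloured by family (filled points, the probe set of highest mean of its gene). The Itga6 sets at 0.33 and 0.29 and 1 Itgav set at 0.51 lie to the right of 0, and the laminin chains lie between -0.17 and 0.06.

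Among the receptors for laminin, Itga6, the subunit shared by the hemidesmosome receptor and a beta-1 receptor, showed the largest difference. Its probe set 1422445 read 10.42, 10.38 and 10.37 in KO, against 9.86, 10.30, 10.10 and 10.01 in WT. The KO arrays lay close together and above all WT arrays, of which WT replicate 2 came closest. The difference was 0.33 (SE 0.105; limma, adjusted p = 0.409), with a two-sided exact permutation p of 0.0571, and 0.111 with arrays exchanged only within scan batch, where the smallest possible values are 0.0286 and 0.0556. The other probe set, 1422444, read 10.25, 10.28 and 10.24 in KO, against 9.81, 10.22, 10.07 and 9.81 in WT, a difference of 0.29 (SE 0.112; limma over all probe sets, adjusted p = 0.515). Again no arrays overlapped and WT replicate 2 was the WT array nearest to KO. The difference of Itga6 was 0.34 within scan batch 1 and 0.32 within scan batch 2, and 0.40 without WT replicate 2. Only a fit with array weights, in which KO replicate 1 (0.297) and WT replicate 2 (0.442) counted least, called it (limma, adjusted p = 0.0478). That fit called 1370 of all 12822 genes tested, and 1 of the 24 integrins and laminins. With the Gapdh difference as a covariate, which leaves 3 residual degrees of freedom, the difference of Itga6 was 0.23.

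Itgb4 encodes the beta subunit found only with alpha-6, and its values leaned the other way. It read 10.74, 10.86 and 10.67 in KO, against 11.00, 10.64, 11.17 and 10.94 in WT. WT replicate 2 was the lowest of all arrays, and the other 3 WT arrays lay above every KO array. The difference was -0.21 (SE 0.110, 95% interval -0.46 to 0.04; limma, adjusted p = 0.484). It was -0.28 without WT replicate 2, -0.13 without WT replicate 3, -0.14 without KO replicate 3, -0.08 within scan batch 1 and -0.05 with the Gapdh covariate.

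Itgb1, the beta subunit of the collagen and laminin receptors, read 10.44, 10.72 and 10.56 in KO, against 10.38, 10.71, 10.51 and 10.53 in WT. The groups covered the same range, with a difference of 0.03 and a 95% interval of -0.20 to 0.25. Itga3, its laminin-binding partner, read 9.51, 9.03 and 8.94 in KO, against 9.33, 8.92, 9.58 and 9.27 in WT. Arrays of both groups were spread over the same range, KO replicate 1 near the top and WT replicate 2 at the bottom. The difference of Itga3 was -0.11 in the fit over both batches, 0.39 within scan batch 1 and -0.44 within scan batch 2, so it had no stable direction. Its other probe sets differed by -0.10 and 0.12.

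Itga7, a laminin-binding subunit best known from muscle, read 5.75, 5.81 and 5.80 in KO, against 5.98, 6.18, 5.93 and 5.85 in WT. These are levels near the array median, and every KO array lay below every WT array. The difference was -0.18 (SE 0.081; limma, adjusted p = 0.439), with exact permutation p of 0.0571, and 0.0556 within scan batch. It was -0.33 within scan batch 1, -0.08 within scan batch 2 (without KO replicate 1) and -0.30 with the Gapdh covariate.

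**Figure D2:**
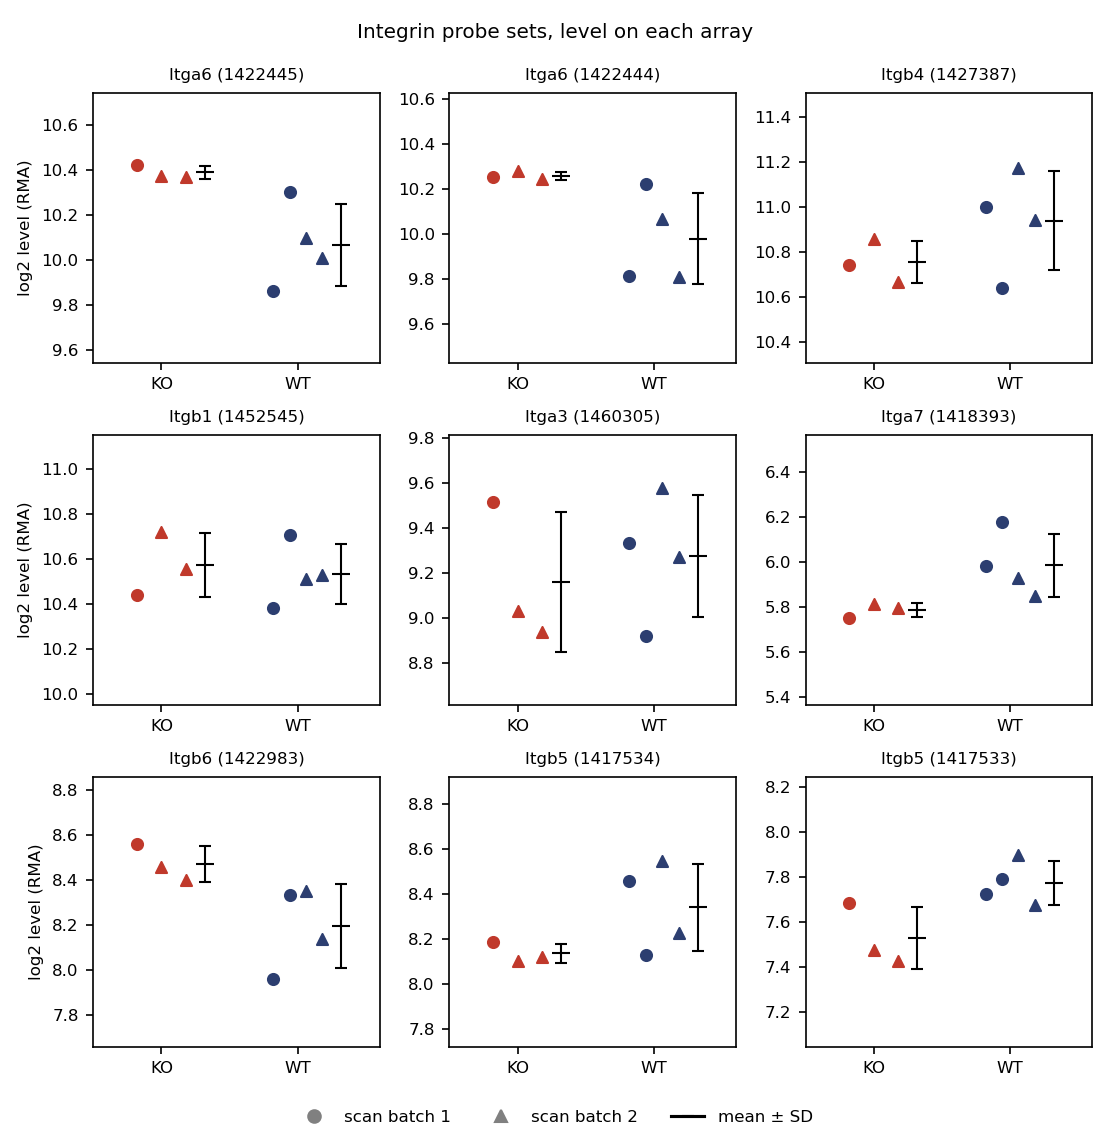
Log2 level on each array for 9 integrin probe sets, KO left of WT, by scan batch (circles, batch 1; triangles, batch 2), with mean ± SD (n = 3 and 4). Both Itga6 sets, the brightest Itgb6 set and Itga7 show no overlap, while Itgb1 and Itga3 cover the same range in both groups. The other Itgb6 set, 1432281, overlaps and is not shown.

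Because subunits act in pairs, the log2 ratio of partners was also followed on each array, relative to its mean over the 7 arrays. The 4 pairs were chosen with the values known, so these ratios are a description of the values above and add no independent support. The Itga6 to Itgb4 ratio was 0.34, 0.17 and 0.36 in KO, against -0.48, 0.31, -0.42 and -0.28 in WT. WT replicate 2 lay among the KO arrays, and the other WT arrays lay well below them. The mean difference was 0.51 (exact permutation p = 0.0857, adjusted over the pairs 0.114).

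The Itga6 to Itgb1 ratio was 0.33, -0.00 and 0.16 in KO, against -0.17, -0.06, -0.07 and -0.18 in WT. It did not overlap, with a difference of 0.28 and an exact permutation p of 0.0286, the smallest possible (adjusted over the pairs 0.114, within scan batch 0.0556). The Itga3 to Itgb1 ratio differed by -0.15 (exact permutation p = 0.686), with 0.50 in scan batch 1 and -0.56 in scan batch 2.

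**Figure D3:**
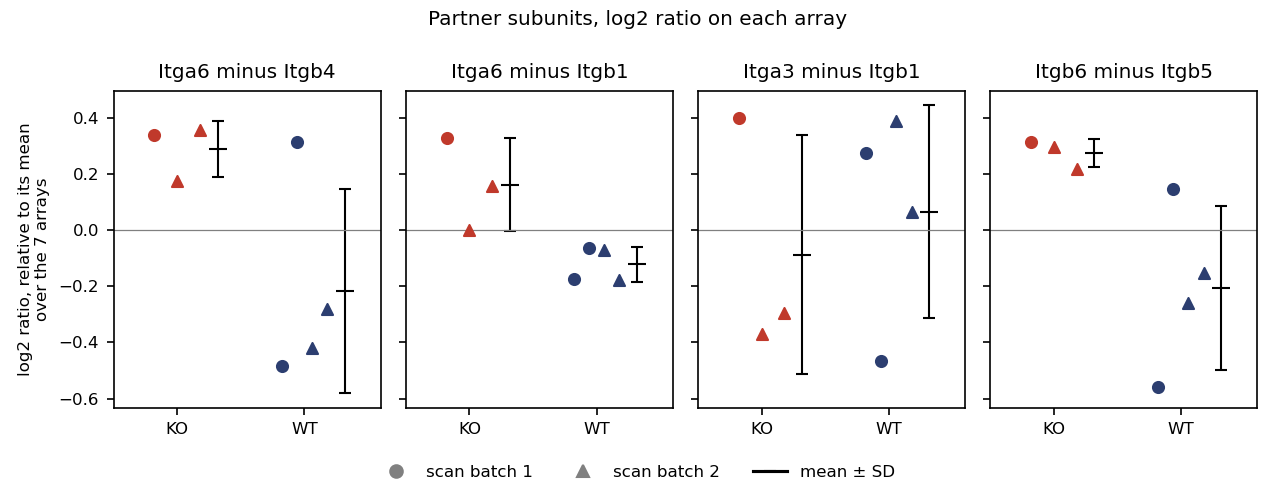
Log2 ratio of 4 pairs of subunits on each array, relative to its mean over the 7 arrays, KO left of WT, by scan batch, with mean ± SD (n = 3 and 4). The Itga6 to Itgb1 and Itgb6 to Itgb5 ratios do not overlap, and WT replicate 2 is the WT point at 0.31 in the Itga6 to Itgb4 panel.

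Itgb6 and Itgb5 encode alternative partners of the alpha-v subunit, and their means differed in opposite directions. Their promoters, from 250 bases before to 50 after the start of the gene, are shown because of that contrast, as RefSeq gives them for GRCm38.p6. Capitals mark each GC box, the letters GGGCGG on either strand. Itgb5 has 1 entry, at chr16:33829415-33829714 on the plus strand, and Itgb6 has 2, at chr2:60722554-60722853 and chr2:60673644-60673943 on the minus strand.
Itgb5: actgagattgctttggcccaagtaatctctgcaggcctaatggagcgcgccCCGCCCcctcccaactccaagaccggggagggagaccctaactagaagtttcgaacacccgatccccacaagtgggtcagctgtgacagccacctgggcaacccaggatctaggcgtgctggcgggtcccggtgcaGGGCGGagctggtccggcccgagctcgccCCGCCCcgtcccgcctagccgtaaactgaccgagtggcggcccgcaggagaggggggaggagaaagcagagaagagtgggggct
Itgb6, first start: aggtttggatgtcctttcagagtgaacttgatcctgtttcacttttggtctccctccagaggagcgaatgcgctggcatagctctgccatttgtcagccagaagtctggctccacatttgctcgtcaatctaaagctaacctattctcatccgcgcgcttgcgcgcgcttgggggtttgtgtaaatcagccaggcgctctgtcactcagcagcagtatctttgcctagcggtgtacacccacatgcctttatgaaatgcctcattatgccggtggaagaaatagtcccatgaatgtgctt
Itgb6, second start: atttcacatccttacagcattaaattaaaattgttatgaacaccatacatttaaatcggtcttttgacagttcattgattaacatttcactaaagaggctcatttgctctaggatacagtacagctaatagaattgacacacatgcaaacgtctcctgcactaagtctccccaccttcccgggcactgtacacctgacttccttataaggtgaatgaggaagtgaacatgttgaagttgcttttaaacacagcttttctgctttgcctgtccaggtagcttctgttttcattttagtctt
The Itgb5 promoter holds 3 GC boxes, and neither Itgb6 promoter holds a match to any of the 4 motifs searched on both strands. One was the GC box. The letters CTTTGAT are read by TCF/LEF factors of the Wnt pathway. The letters TGANTCA are read by AP-1, a stress and growth factor complex. The last was the letters TATAAA of the classical core promoter. The promoter table held 23 entries for 20 of the genes. Of the 23, 11 (47.8%) held a GC box, against 35.7% of all 32851 promoters, and 3 (13%) held the AP-1 letters, against 7.81%. None held CTTTGAT, against 3.73%, or TATAAA, against 13.6%. A match says only that these letters lie in the window.

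Itgb6, whose receptor activates latent TGF-beta, read 8.56, 8.46 and 8.40 in KO, against 7.96, 8.33, 8.35 and 8.14 in WT. Every KO array lay above every WT array, though KO replicate 3 was close to WT replicates 2 and 3. The difference was 0.28 (SE 0.121; limma, adjusted p = 0.437), with exact permutation p of 0.0857, and 0.111 within scan batch. It was 0.41 within scan batch 1, 0.19 within scan batch 2 and 0.18 with array weights. The second probe set, 1432281, overlapped and differed by 0.15.

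Itgb5, whose receptor binds vitronectin, read 8.18, 8.10 and 8.12 in KO, against 8.45, 8.13, 8.55 and 8.23 in WT on probe set 1417534. Only WT replicate 2 lay within the KO range, and the difference was -0.21 (limma, adjusted p = 0.525). Its probe set 1417533 read 7.69, 7.48 and 7.42 in KO, against 7.73, 7.79, 7.90 and 7.67 in WT. There KO replicate 1 lay just above the lowest WT array, and the difference was -0.23 (SE 0.100; limma over all probe sets, adjusted p = 0.531). Without WT replicate 3 the differences were -0.11 and -0.15, within scan batch 1 they were -0.11 and -0.07, and with the Gapdh covariate -0.08 and -0.17. With array weights both were -0.35. The Itgb6 to Itgb5 ratio was 0.31, 0.30 and 0.22 in KO, against -0.56, 0.15, -0.26 and -0.15 in WT, without overlap (difference 0.48, exact permutation p = 0.0571, adjusted over the pairs 0.114).

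Itgav itself, the alpha-v subunit, gave opposite signs on its 5 probe sets. The brightest, 1421198, read 8.66, 8.73 and 8.71 in KO, against 8.92, 8.85, 8.71 and 8.76 in WT, a difference of -0.10 (limma, adjusted p = 0.636). The groups met at KO replicate 2 and WT replicate 3. Probe set 1452784 read 8.53, 8.78 and 8.69 in KO, against 8.21, 8.58, 7.74 and 8.22 in WT. There WT replicate 2 lay above KO replicate 1 and WT replicate 3 was far below the rest, and the difference was 0.51 (SE 0.178; limma over all probe sets, adjusted p = 0.508, exact permutation p = 0.0857). It was 0.14 within scan batch 1, 0.76 within scan batch 2, 0.33 without WT replicate 3 and 0.25 with the Gapdh covariate. The remaining 3 probe sets differed by -0.11, -0.15 and -0.05. The sources used here do not say which part of the transcript each probe set reads, so no direction can be given for Itgav as a gene.

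**Figure D4:**
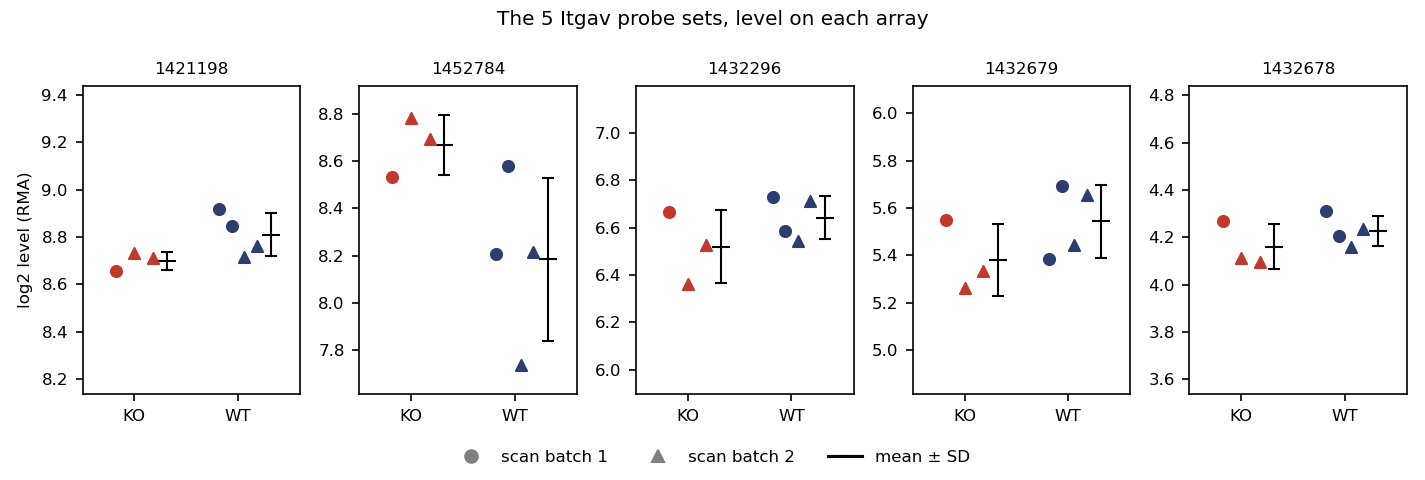
Log2 level of the 5 Itgav probe sets on each array, KO left of WT, by scan batch, with mean ± SD (n = 3 and 4). Probe set 1452784 has a higher KO mean, by 0.51, and the other 4 have lower KO means, by 0.05 to 0.15.

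Other subunits of epithelium and matrix showed small differences. Itga2, the collagen-binding partner of beta-1, read 6.33, 6.30 and 6.32 in KO, against 6.41, 6.47, 6.33 and 6.36 in WT, a difference of -0.07. Itga9, which binds tenascin, differed by -0.00, and Itga2b, the platelet fibrinogen receptor subunit, by -0.05. The subunits below the level filter differed little too: Itga1 by 0.10, Itga5 by -0.04, Itga8 by -0.05, Itga10 by -0.03 and Itgb3 by 0.01 in the fit over all probe sets.

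The laminin chains of the hemidesmosome ligand were similar in both groups. Lama3, its alpha chain, read 10.19, 9.94 and 10.08 in KO, against 9.86, 10.12, 10.15 and 10.05 in WT. KO replicate 1 was highest and WT replicate 1 lowest, and the difference was 0.02 (95% interval -0.21 to 0.26). Lamb3, its beta chain, read 11.08, 10.86 and 10.92 in KO, against 10.95, 10.80, 10.94 and 10.92 in WT. The difference was 0.06 with a 95% interval of -0.11 to 0.22, and the groups overlapped.

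Chains of other laminins also overlapped. Lamc1, the gamma chain of most basement membrane laminins, read 8.39, 8.76 and 8.54 in KO, against 8.48, 8.68, 8.43 and 8.58 in WT, a difference of 0.01. Lamb2, a beta chain of mature basement membranes, read 8.45, 8.34 and 8.29 in KO, against 8.52, 8.56, 8.69 and 8.38 in WT. Only WT replicate 4 lay within the KO range, and the difference was -0.17 (limma, adjusted p = 0.532; exact permutation p = 0.114, within scan batch 0.0556).

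Lamb1, another laminin beta chain, read 5.86, 5.81 and 5.65 in KO, against 6.00, 5.54, 6.24 and 5.85 in WT, a difference of -0.15 on its brightest probe set. WT arrays included both the highest and the lowest value. With WT replicate 3 left out the difference was -0.013, with KO replicate 1 left out -0.31, and the other 3 Lamb1 sets differed by -0.02, 0.01 and 0.03. Lama1, Lama2 (the muscle and mesenchymal alpha chain) and Lamc3 differed by -0.09, -0.10 and 0.05. Fewer cells of a type and less RNA per cell cannot be told apart in such bulk samples. The mean level of 11 fibroblast and smooth muscle markers was 5.83 to 6.38 in KO and 5.85 to 6.33 in WT, with KO replicate 2 and WT replicate 3 highest. WT replicate 3 also had the highest Lamb1. In KO replicate 2 Lamb1 was 5.81, and it was 6.00 in WT replicate 1, whose marker mean of 5.85 was the lowest of WT. The part of these cells in the laminin values was not tested. Of the 8 such markers tested, 1 had an unadjusted p under 0.05, against 11.4% of all genes tested. That marker was Thy1, with a difference of 0.17.

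**Figure D5:**
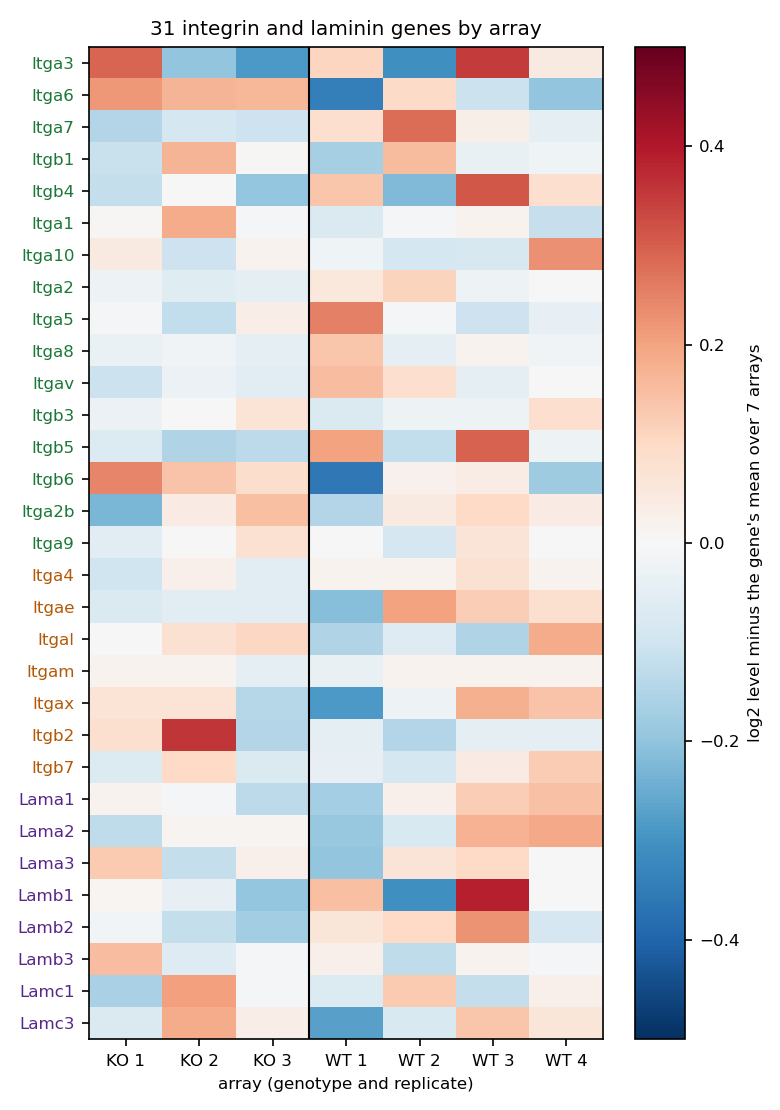
Log2 level of each of the 31 genes on its brightest probe set, as the difference from the gene's mean over the 7 arrays, with KO columns left of WT columns and gene names coloured by family (green, epithelial and matrix; orange, leukocyte; purple, laminin). Itga6 and Itgb6 are above their means in all 3 KO columns, and most other genes mix both signs within a group.

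The leukocyte integrins gave no p under 0.05 and no pair of groups without overlap. Itgb2, the beta subunit of leukocyte adhesion receptors, read 6.44, 6.71 and 6.21 in KO, against 6.31, 6.21, 6.31 and 6.31 in WT. KO replicate 2 alone stood apart, and the difference was 0.16 (limma, adjusted p = 0.584). Itgae, the subunit of intraepithelial lymphocytes, read 6.28, 6.30 and 6.30 in KO, against 6.14, 6.55, 6.47 and 6.43 in WT, a difference of -0.12. Here WT replicate 1 lay below the KO arrays and the other WT arrays above them.

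Itgb7, the partner of Itgae and Itga4, differed by -0.04, Itgal by 0.09 and Itgax, of dendritic cells, by -0.03. Itga4 and Itgam, a subunit of myeloid cells, lay below the level filter and differed by -0.08 and -0.01 on their brightest probe sets. Of 12 leukocyte integrin probe sets, 10 had a negative and 2 a positive difference, against 26152 and 18885 of all 45037. The 5 Itga4 sets, with group means of 4.10 to 5.15, were all among the 10.

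Markers of leukocytes themselves showed little difference. Of 22 on the array, 15 passed the level filter, and Ptprc, Cd3e, Ms4a1 and Adgre1, which define leukocytes, T cells, B cells and macrophages, did not. The mean level of the 22 was 6.04 to 6.12 in KO and 5.97 to 6.12 in WT, and the median difference of the 15 was 0.00. Lyz2, a listed lysozyme gene, was the 1 of these 15 with an unadjusted p under 0.05, against 11.4% of all genes tested. It read 12.39, 12.53 and 12.42 in KO, against 11.63, 12.30, 12.26 and 11.95 in WT, without overlap (difference 0.39; limma, adjusted p = 0.414). These levels were near those of Epcam, while group means of the listed Csf1r, Tyrobp and Fcer1g were 6.12 to 6.93. Which cells the Lyz2 signal came from was not tested. Of 6 endothelial markers tested, 1 had an unadjusted p under 0.05, Cdh5. It differed by -0.41 (limma, adjusted p = 0.353), with every KO array below every WT array. The other endothelial markers tested differed by -0.08 to 0.04, and the mean of the 9 listed was 5.54 to 5.66 in KO and 5.60 to 5.68 in WT. Of 3 platelet markers tested, 0 had a p under 0.05.

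The proteins that work with these receptors gave 0 calls in limma at an adjusted p under 0.05 in each list. Among 4 hemidesmosome partners, 0 had an unadjusted p under 0.05. Col17a1, the hemidesmosomal collagen, read 7.93, 6.88 and 6.49 in KO, against 6.70, 6.60, 6.61 and 6.81 in WT, so its difference of 0.49 came mainly from KO replicate 1. Cd151, a tetraspanin that binds laminin-receptor integrins, differed by 0.19, Dst by -0.17 and Plec, the plectin that links Itgb4 to keratin, by 0.00.

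Among 7 tested basement membrane components other than laminins, 1 was higher and 2 were lower in KO at an unadjusted p under 0.05, with a median of -0.16, where 11.4% of all genes tested had such a p in either direction. Col4a1, a collagen IV chain, read 8.77, 8.81 and 8.66 in KO, against 8.54, 7.87, 8.65 and 8.00 in WT. The groups did not overlap, but KO replicate 3 and WT replicate 3 were nearly equal, and the difference was 0.47 (limma, adjusted p = 0.437). Nid1, which links laminin to collagen IV, differed by -0.31, and the proteoglycan Agrn by -0.28 (limma, adjusted p = 0.420 and 0.437).

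Of 22 integrin activators and focal adhesion proteins, 7 had positive and 15 negative differences, with a median of -0.09, and 3 were lower in KO at an unadjusted p under 0.05, a share near the 11.4% of all genes tested. These were Fermt2, a kindlin that activates integrins, with -0.33, Parvg, a parvin, with -0.22 and no overlap, and the kinase Src with -0.11. At an unadjusted p under 0.05, against 11.4% of all genes tested, 1 of 6 tested ligands of other integrins was higher. This was Icam1, the ligand of the beta-2 integrins of leukocytes, which read 8.42, 8.41 and 8.42 in KO, against 8.31, 8.23, 8.22 and 7.78 in WT. Every KO array lay above every WT array, and the difference was 0.31 (limma, adjusted p = 0.428). The 4 other laminin receptors tested, Sdc4, Rpsa, Dag1 and Bcam, differed by -0.10 to 0.01.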

How the data were processed

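The authors deposited log2 levels per probe set, made with RMA (background correction, normalization across arrays and 1 summary per probe set) per the submitters' processing notes. The sources used here give neither its version nor any batch correction. Of 45141 probe sets, 104 controls were left out, 28898 had 1 gene symbol in the platform annotation and 16139 had several or none. All 59 integrin and laminin probe sets matched RefSeq gene numbers.

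KO (3 arrays) was compared with WT (4 arrays) in limma 3.58.1 (R 4.3.3) with scan batch, taken from the labels, as a covariate, a trend on mean level and Benjamini-Hochberg adjustment at 0.05. Per gene the probe set of highest mean was used, after the lowest 25% of genes were left out. Single values were compared by two-sided exact permutation over 35 splits, or 18 within scan batch. The number of arrays limits the precision. Genes were named by role and by smallest p within lists. Itga6, Itgb4, Itgb1, Itga3, Itga7, Itgb6, Itgb5, Itgav, Lama3, Lamb1, Lamb2, Lamb3 and Lamc1 were given array by array. So were Itga2, Itgb2 and Itgae. The members, lists and pairs were chosen with earlier results of these data known. Alternatives changed the filter, probe set choice, normalization, batch, weights, RNA covariate and arrays included.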

Additional observations from a re-analysis of the deposited data

Results flagged for a closer look

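One value was flagged against the rest of its group by Dixon's test, out of 30 probe sets checked in the 4 WT arrays. Itgb1 probe set 1426919, one of 5 for that gene and below the level filter, read 4.05 in WT replicate 2, and the other 3 WT arrays all read 3.9895. With those 3 tied, the test flags a gap of any size, so the flag does not show that the value lay far off. Chance flags about 1 in 20 groups that hold no such ties.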

How the results depend on the processing

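Genes called numbered 0 except with array weights and with 1 array left out. With array weights they were 1370 of 12822 (977 higher, 393 lower), among them 1 of the 24 integrins and laminins, Itga6. With 1 array left out they were 0 to 2. Itga6, Itgb4, Itgb5, Itgb6 and Itga7 kept their sign in every alternative run for them. The median of the epithelial and matrix subunits was -0.031 with all probe sets averaged, -0.018 in scan batch 2 alone, -0.11 in scan batch 1 alone, -0.030 with array weights and -0.090 to -0.018 with 1 array left out. That of the leukocyte subunits was 0.11 in scan batch 1, 0.050 with the Gapdh covariate, 0.099 on the 5 arrays without Y-linked signal (chosen after seeing the data) and -0.069 to 0.066 with 1 array left out. That of the laminins was -0.13 in scan batch 2, 0.090 in scan batch 1, -0.12 with array weights and -0.13 to -0.0049 with 1 array left out.

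Signs turned for genes with small differences. Itgav became 0.021 with all probe sets averaged and 0.51 when its most variable probe set was used. In scan batch 1 alone Itga3 became 0.39, Itgb1 -0.11, Lamb1 0.090 and Lamc1 -0.19, and in scan batch 2 alone Lama3 became -0.094 and Lamb3 -0.041. With the Gapdh covariate Itga3 became 0.24, Itgb1 -0.10, Lamb1 0.089 and Lamc1 -0.12. With array weights Lama3 became -0.098 and Lamb3 -0.030, and with arrays normalized again Lamc1 became -0.033. With 1 array left out the ranges were -0.44 to 0.051 for Itga3, -0.036 to 0.12 for Itgb1, -0.094 to 0.089 for Lama3, -0.041 to 0.097 for Lamb3, -0.077 to 0.14 for Lamc1 and -0.31 to -0.013 for Lamb1. The sign turned without WT replicate 3 for Itga3, without KO replicate 2 or WT replicate 1 for Itgb1, without KO replicate 1 or WT replicate 1 for Lama3, without KO replicate 1 for Lamb3, and without KO replicate 2, WT replicate 1 or WT replicate 3 for Lamc1. The cause was not tested. Scan batch 1 holds 1 KO array, KO replicate 1, so values without it are those of scan batch 2. No paired analysis was possible because replicate numbers were given in accession order and pair no samples.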
